A study of Mus musculus with 2 samples.

Results

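The 10 genes described here, Atg3, Atg5, Atg7, Atg12, Atg13, Atg101, Ulk1, Becn1, Map1lc3b and Rb1cc1, encode core parts of the autophagy machinery and were taken by name out of 21938 protein-coding genes. They were looked up in a list of 4681 YY1 peaks from 1 ChIP-seq library, in which DNA bound by the transcription factor YY1 was pulled down with an antibody and sequenced. The chromatin came from MuSCs, the stem cells of skeletal muscle, sorted by their YFP reporter from hindlimb muscle and pooled from 20 Ctrl mdx mice, which lack functional dystrophin. These mice carried Pax7CreERT2, an inducible Cre driven by the MuSC gene Pax7, the R26YFP reporter and Yy1+/+ alleles, so YY1 was intact. The study's text describes freshly isolated cells of mdx mice, whereas the deposited descriptions give cultured MuSCs and call them WT, and no age was given for the pooled animals. Peaks were called against 1 background library, not analysed here, which the labels name input and the methods call both input and IgG. With 1 library per antibody there was no biological replicate and no comparison between conditions. Every interval below therefore covers the counting error of the sequenced YY1 fragments only. A peak list holds no expression values, so the cell type could not be checked against marker genes, and the levels of these genes were not measured here.

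Autophagy encloses cytoplasm in a double membrane, the autophagosome, and delivers it to lysosomes for breakdown, and it is known to be needed for the upkeep of quiescent MuSCs. The ULK kinase complex starts the process, the class III PI3-kinase complex marks the membrane with a lipid, and a pair of ubiquitin-like conjugation reactions attaches LC3 to the growing membrane. YY1 is a zinc finger factor that binds many promoters as well as enhancers, and its usual site is built around the letters ATGGC.

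A promoter peak was counted where the summit, the base of highest pile-up within a peak, lay within 1000 bp of a start site of a basic GENCODE M21 transcript. By this measure 6 of the 10 genes carried YY1, Rb1cc1, Atg101, Atg7, Atg3, Atg5 and Atg12, each with 1 summit, while Ulk1, Atg13, Becn1 and Map1lc3b had none. Where a fold enrichment of 5 or more was required, the count was 3, since Atg3, Atg12 and Atg101 dropped out. At that limit 11.1% (2445 of 21938) of protein-coding genes had a promoter summit. Without it, the share among all protein-coding genes was 18.8% (4119 of 21938). Most of the 10 genes have a CpG-rich start, and among protein-coding genes with such a start the share was 36.9% (3716 of 10083). The list of 10 is too short, and was proposed with these data known, for the difference from any of these shares to be tested.

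The sequences below show what lay under the summit, or at the motif, at 4 of the bound promoters. They are given 5′ to 3′ on the plus strand of GRCm38 (mm10), which is also the strand of all 4 genes. Capitals mark a match to ATGGC, which on the minus strand reads as GCCAT, to the E-box CACGTG, which MITF and TFEB family factors among others read, or to its longer form GTCACGTG. The Atg7 and Atg101 windows reach 60 bp to either side of the summit, at chr6:114642935-114643055 and chr15:101283897-101284017. The Atg3 windows are centred on a motif, at chr16:45158629-45158658, chr16:45158722-45158751 and chr16:45158745-45158774. The Atg5 window covers the peak's bases upstream of the RefSeq transcript, at chr10:44268287-44268338.
Atg7 summit: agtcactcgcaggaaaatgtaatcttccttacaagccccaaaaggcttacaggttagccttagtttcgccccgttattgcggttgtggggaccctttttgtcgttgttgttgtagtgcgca
Atg101 summit: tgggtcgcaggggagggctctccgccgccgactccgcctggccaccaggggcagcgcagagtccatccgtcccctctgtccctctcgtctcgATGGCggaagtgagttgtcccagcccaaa
Atg3 at the summit: gcagcctgagcgGCCATtgcgcaggcgcgc
Atg3 first E-box: ggcctccttttGTCACGTGtcctgggagag
Atg3 second E-box: gggagagtcgaGTCACGTGaggccttaggt
Atg5 upstream of the start: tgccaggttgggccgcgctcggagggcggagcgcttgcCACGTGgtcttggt

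The Atg7 and Atg101 windows differ plainly in composition, with 47.9% G and C at Atg7 and 68.6% at Atg101. Both strands were read for the full YY1 motif AANATGGC up to 100 bp from the summits, which gave a match at 0 of the 6 bound genes, and the whole peaks also gave 0. Across all 3971 promoter summits it was found at 7.35%, and in the longer windows of the RefSeq promoters at 6.05%, so most YY1 summits at promoters carried no match to these letters. The shorter core ATGGC, which AANATGGC contains, was matched at Atg3, centred 13.0 bp from the summit, and at Atg101, 34.0 bp from the summit. The core is frequent in any promoter, at 31.0% of promoter summits and 40.5% of 32841 RefSeq promoters of 300 bases. Its fixed-base form AAGATGGC was matched at 0 of the 6 genes, at 3.95% of promoter summits and at 2.75% of RefSeq promoters.

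E-boxes stood under the peaks of Atg3 and Atg5. At Atg5, CACGTG lay 58.5 bp from the summit, beginning 33 bp upstream of the start, and 7.10% of promoter summits had such a match within 100 bp. At Atg3 no match lay within 100 bp of the summit, but the peak held 2 copies of GTCACGTG between the summit and the start. The RefSeq promoters run from 250 bases upstream to 50 downstream of the start. Of these, 2.25% held at least 1 match to this longer form on either strand, and 0.463% held at least 2 matches. A site that matches on both strands can count as 2. The share with at least 2 separate copies, as at Atg3, is therefore at most 0.463% and was not counted. The ETS-type motif CCGGAAG was found within 100 bp of the summit at Rb1cc1 and at Atg3, against 13.2% of promoter summits and 8.86% of RefSeq promoters. Read over whole peaks, it was also matched at Atg7 and Atg101, and no share over whole peaks was computed. The NRF1 motif was matched at Atg7 alone, 60.5 bp from the summit, against 2.24% of promoter summits. These matches describe letters and were not tested as sites. RefSeq promoters were matched for 7 of the 10 genes, and 6 of the 7 held no AANATGGC. The exception, Atg7, is listed there with another start, at chr6:114670846-114671145, and that window held 1 match to AANATGGC and 1 to GTCACGTG but no YY1 summit. Curated RefSeq transcripts of Atg7 also include a start 132 bp from the YY1 summit.

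Within the ULK complex, Rb1cc1 and Atg101 had a promoter peak, and the kinase gene Ulk1 and Atg13 had none. Atg101 lost its call at a fold of at least 5, and Rb1cc1 with a window of 1000 bp upstream to 100 bp downstream. Rb1cc1 (ENSMUSG00000025907.14, chr1:6206197-6276648, plus strand) encodes FIP200, the large scaffold of the complex. Its peak, chr1:6214398-6214985, was 588 bp wide, broader than 84.9% of promoter peaks, and its summit lay 144 bp downstream of the basic start. At that summit 17 fragments stood over a local background of 1.98, a fold enrichment of 6.05 with a 95% Poisson interval of 3.66 to 9.48. The fold is the ratio of fragments to background after 1 is added to each, as MACS2 computes it, so it is lower than the plain quotient. The summit fell in the Rb1cc1 UTR and also in an exon of the antisense RNA 4732440D04Rik. On the other strand this RNA has starts 55 bp upstream and 648 bp downstream of the Rb1cc1 start. Only transcription from the downstream one runs across the summit. The peak therefore cannot be assigned to either gene alone. Rb1cc1 also had the most GC-rich start of the 10 genes, with 69.1% G and C over 500 bp to either side.

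Atg101 (ENSMUSG00000037204.7, chr15:101284272-101290945, plus strand) encodes the subunit that stabilises ATG13. Its peak, chr15:101283853-101284289, spanned 437 bp and covered the start at its downstream end, with the summit 315 bp upstream, outside any basic transcript. There were 15 fragments over a background of 2.96, a fold enrichment of 4.04 (95% interval 2.37 to 6.49), and 16.8% of promoter peaks had a lower fold. No other gene started within 1000 bp of this summit.

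Ulk1 (ENSMUSG00000029512.11, chr5:110784488-110810097, minus strand), the kinase that gives the complex its name, had its nearest summit 39.5 kb away, on the downstream side, or 16621 bp away when all annotated transcripts were used. That summit lay 15 bp upstream of a start of Ep400, a chromatin remodelling ATPase, and had 23 fragments and a fold enrichment of 7.68. Atg13 (ENSMUSG00000027244.14, chr2:91674618-91710576, minus strand) encodes the adaptor that ties ULK1 to FIP200. Its nearest summit was 19.7 kb upstream, 20 bp into Ambra1, which encodes a regulator of Beclin 1 and is itself an autophagy gene, with a fold enrichment of 5.04 from 14 fragments. Both genes had their nearest YY1 summit at the promoter of another gene.

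Becn1 (ENSMUSG00000035086.13, chr11:101285952-101302286, minus strand) encodes Beclin 1, a subunit of the class III PI3-kinase complex, and was another gene without a promoter summit. The nearest YY1 summit was 13.8 kb upstream, 97 bp before the start of Psme3, which encodes a proteasome activator, where 14 fragments gave a fold enrichment of 5.92.

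The 4 conjugation genes each carried a promoter summit, of which those of Atg3 and Atg12 were lost at a fold of at least 5 and that of Atg12 also with a window of 500 bp. Atg7 (ENSMUSG00000030314.16, chr6:114643097-114860614, plus strand) encodes the E1-like enzyme that activates both ATG12 and LC3. Its peak, chr6:114642944-114643158, was 215 bp wide, the narrowest width in the deposited list, and covered all 5 start sites of the 6 basic transcripts, which lie within 32 bp of each other. The summit, 102 bp upstream, had 13 fragments over a background of 1.54, a fold enrichment of 5.52 (95% interval 3.12 to 9.16). Atg7 was the only one of the 10 genes whose start was not CpG-rich, with 48.4% G and C, and of 11842 protein-coding genes outside the CpG-rich class 401 (3.39%) had a promoter summit.

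Atg3 (ENSMUSG00000022663.3, chr16:45158785-45188538, plus strand) encodes the E2-like enzyme that passes LC3 to the lipid phosphatidylethanolamine. Its peak, chr16:45158421-45158795, was 375 bp wide, with the summit 155 bp upstream of Atg3. The 16 fragments stood over the highest background of the 6 genes, 3.95, which made its fold enrichment the lowest at 3.43 (95% interval 2.05 to 5.45), and 5.49% of promoter peaks had a lower fold. The peak also covered start sites of Slc35a5, a solute carrier gene on the other strand, at 79 and 219 bp upstream of Atg3. The summit was in the Slc35a5 UTR and 64 bp from the nearer Slc35a5 start, which is closer than the Atg3 start, and which gene it belongs to cannot be told from a peak list.

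Atg5 (ENSMUSG00000038160.7, chr10:44268358-44364291, plus strand) encodes the protein to which ATG12 is joined. Its summit was the closest to a start of the 10 genes, 28 bp downstream in its UTR (47 bp with curated RefSeq transcripts), within a 251 bp peak at chr10:44268287-44268537. Among the 6 genes with a promoter peak it had the most fragments, 20 over a background of 2.34, and the highest fold enrichment, 6.29 (95% interval 3.96 to 9.56), above 77.8% of promoter peaks. No other gene started within 1000 bp of it.

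Atg12 (ENSMUSG00000032905.5, chr18:46730144-46741580, minus strand) encodes the ubiquitin-like protein of the first reaction. Its peak, chr18:46742133-46742354, gave 14 fragments over 2.12 and a fold enrichment of 4.80 (95% interval 2.77 to 7.84). This was the peak nearest the 1000 bp limit, with the summit 739 bp upstream, and it did not reach the Atg12 start. The summit lay within an intron of Ap3s1, an adaptor complex subunit gene on the other strand, 382 bp downstream of one of its starts, so it was nearer to Ap3s1 than to Atg12.

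Map1lc3b (ENSMUSG00000031812.16, chr8:121590361-121598760, plus strand) encodes LC3B, the protein that marks autophagosomes. It had no promoter summit, but its nearest, 4828 bp upstream, was the closest of the 4 genes without one. That peak, with 12 fragments and a fold enrichment of 4.16, lay within an intron of the long overlapping gene Gm20388 and had no start site within 1000 bp. The nearest start was that of the pseudogene Gm17786, 3768 bp from the summit.

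**Figure D1:**
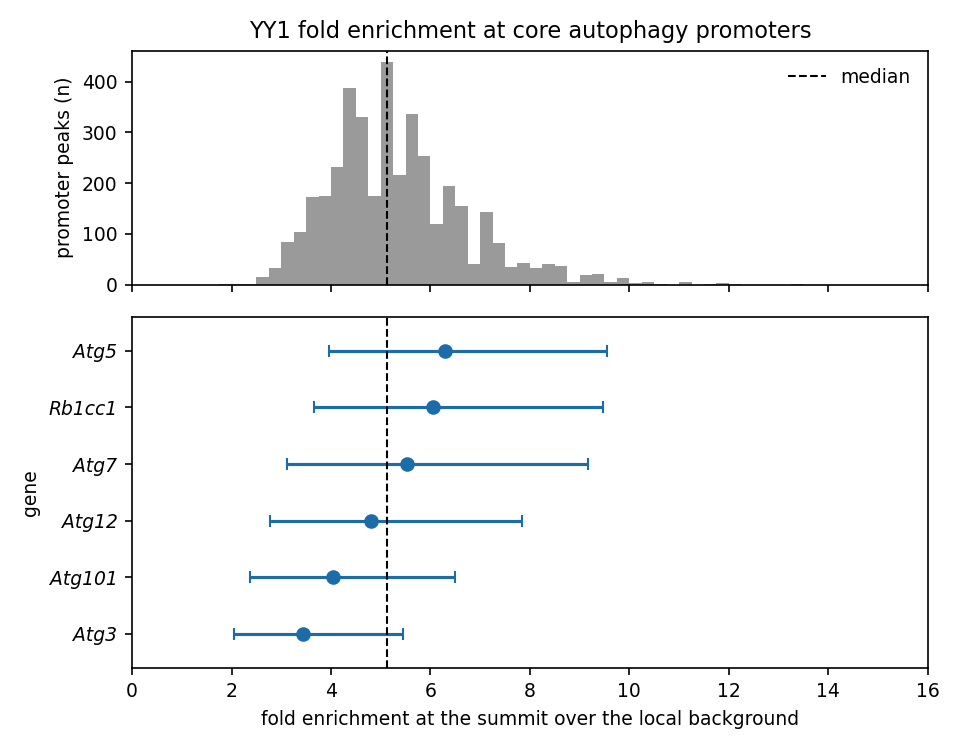
The lower panel plots the fold enrichment at the summit over the local background for the 6 core autophagy genes with a promoter peak (points), with 95% Poisson counting intervals as bars, and the upper panel counts all 3971 promoter peaks by fold. The points run from 3.43 at Atg3 to 6.29 at Atg5, and their intervals overlap.

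The order of the folds was Atg5, Rb1cc1, Atg7, Atg12, Atg101 and Atg3, and no pair of neighbours differed beyond its counting interval, as the plot of folds shows. Even Atg5 and Atg3, at the ends, had overlapping intervals. The median fold of the 6 genes was 5.16, against 5.13 over all promoter peaks (quartiles 4.34 and 6.05), and the median fragment number was 15.5 against 15.0. The q-value that MACS2 set within this pair of libraries ran from 3.52e-09 at Atg5 to 0.00279 at Atg3.

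**Figure D2:**
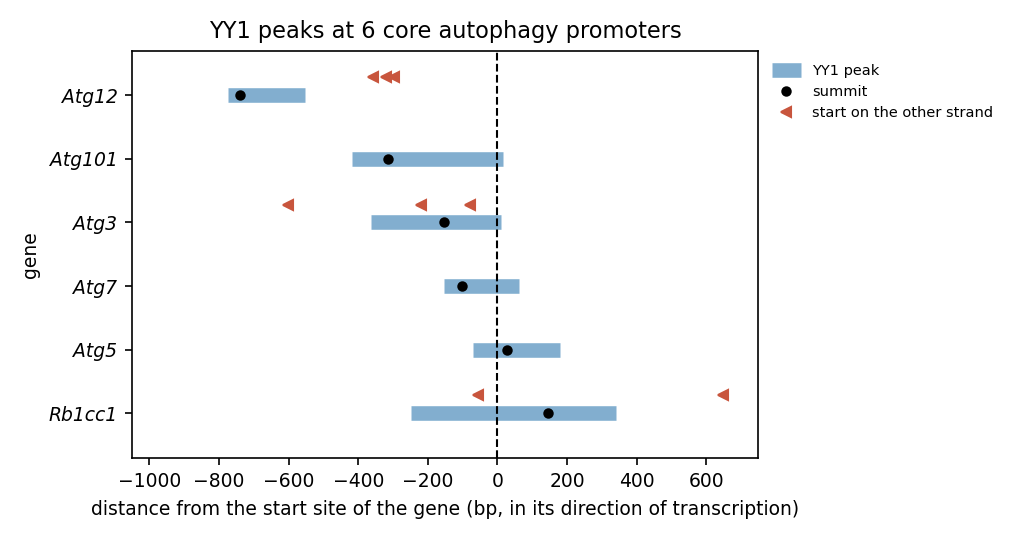
Each bar is the YY1 peak at a core autophagy gene, drawn against the distance in bp from its start site in the direction of transcription, with the summit as a dot and starts on the other strand as triangles. Of the 6 summits, 4 lay upstream and 2 downstream of the start, and the Atg12 peak alone did not cover the start.

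The median distance from the start was 150 bp for the 6 genes and 104 bp for all bound protein-coding genes. Of the 10 genes, 4 had a start on the other strand within 1000 bp, Atg3, Atg12, Rb1cc1 and Atg13 (Harbi1), and all but Atg13 were bound. Such a neighbour was present for 38.6% of bound and 14.9% of unbound protein-coding genes. The part of such neighbours in the count of 6 was not tested. A summit inside the gene body was found for 2 of the 10, Atg5 and Rb1cc1, and in both it was the promoter summit, whereas 13.7% (2997 of 21938) of protein-coding genes had one. Counting any base of a peak in place of the summit gave 5 of the 10, since the promoter peaks of Atg3, Atg7 and Atg101 reach past the start, against 18.8% (4117 of 21938) of protein-coding genes.

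**Figure D3:**
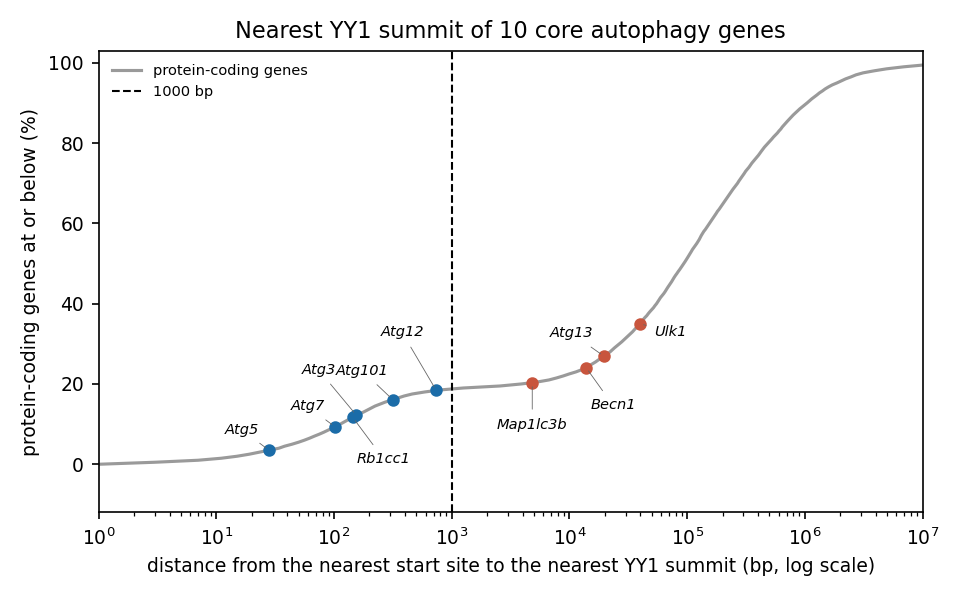
The curve gives the percentage of protein-coding genes whose nearest YY1 summit is at or below a distance in bp (log axis), with the 10 core autophagy genes marked in blue (promoter summit) and red (none) and 1000 bp as a dashed line. The 4 red genes sit between 4828 and 39453 bp.

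The 4 genes without a promoter summit lay nearer to one than most others without. All 4 had a CpG-rich start, against 35.8% of unbound protein-coding genes, and no distance was set against CpG-rich genes alone. Map1lc3b was closer than 98.0% of 17819 unbound protein-coding genes, Becn1 closer than 93.4%, Atg13 than 90.0% and Ulk1 than 79.9%, where the median distance was 150 kb. The value of Map1lc3b rests on a peak with a fold of 4.16, and with only peaks of a fold of at least 5 its nearest summit was 62152 bp away. A gene not in the list is not shown to lack YY1. At the most frequent background, 1.54 fragments, no peak was called on fewer than 8 fragments, and the bound genes had 13 to 20.

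**Figure D4:**
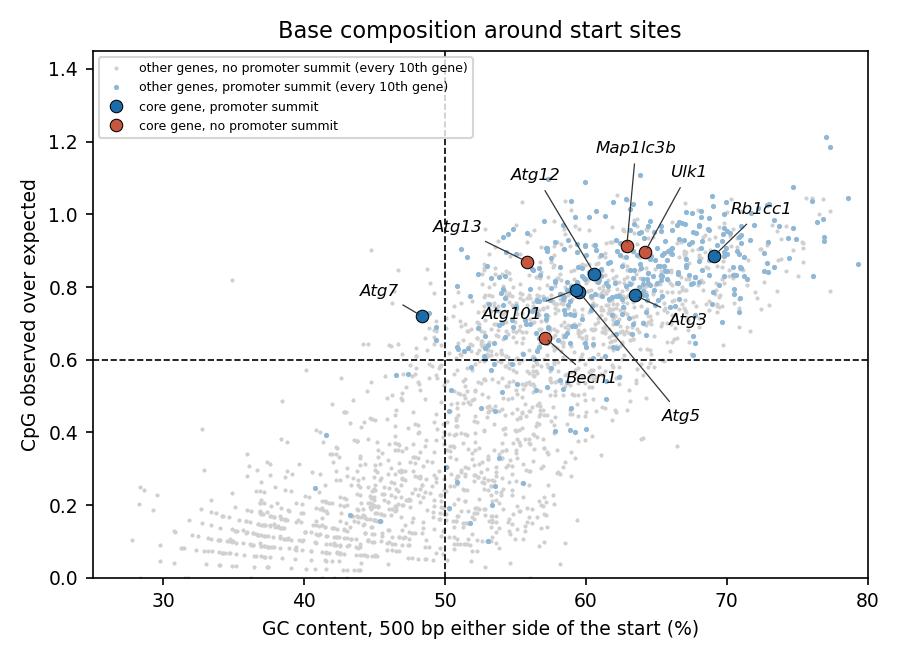
Each point is a gene placed by the GC content (x axis, percent) and the CpG observed over expected ratio (y axis) of the 500 bp to either side of its start, with every 10th protein-coding gene shown small. Of the 10 core genes, 9 lie in the upper right, with and without a promoter summit, and Atg7 lies left of the GC limit of 50%.

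Base composition did not separate the bound from the unbound genes among the 10, as the plot of GC content and CpG ratio shows. The CpG observed over expected ratio was 0.719 to 0.886 at the 6 bound and 0.661 to 0.912 at the 4 unbound genes, ranges that overlap, against a median of 0.571 over protein-coding genes. Of the 9 CpG-rich genes 5 were bound. In the whole library 90.3% of bound and 35.8% of unbound protein-coding genes were CpG-rich.

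**Figure D5:**
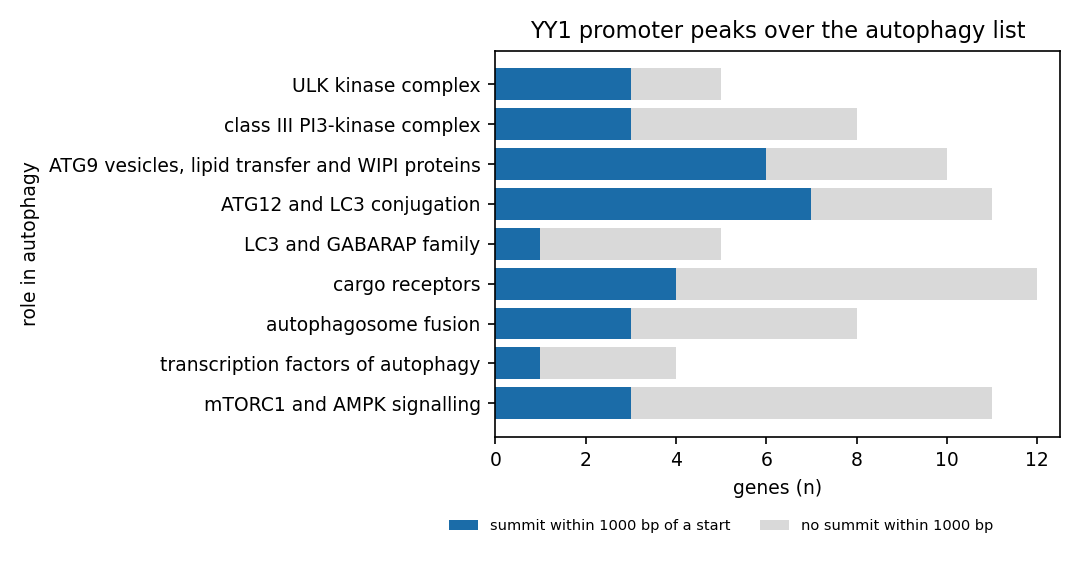
Bars count the genes of an autophagy list of 74 genes in 9 roles, with a YY1 summit within 1000 bp of a start (blue) or none (grey). Conjugation genes have 7 of 11 and LC3 family genes 1 of 5.

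A wider list of 74 autophagy genes in 9 roles, with the 10 core genes included and also chosen with earlier results of these data known, was counted by the same rule. Of the 74, 31 (41.9%) had a promoter summit, and of the 64 that are not core genes 25 (39.1%) did, against 18.8% of all protein-coding genes. At a fold of at least 5 these counts fell to 19 and 16, against 11.1% of protein-coding genes. The median fold of the 31 was again 5.13. Among CpG-rich list genes 28 of 60 (46.7%) were bound, against 36.9% of CpG-rich protein-coding genes, and outside that class 3 of 14, Atg7, Tmem41b and Fundc1, against the 3.39% given above.

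By role, the ULK complex had 3 of 5 bound, which adds Ulk2, the paralog of Ulk1, with a fold of 5.92 and the summit 482 bp downstream. The class III PI3-kinase complex had 3 of 8, Nrbf2, Ambra1 and Rubcn, whereas Pik3c3, the lipid kinase itself, was not bound. The ATG9 and lipid transfer group had 6 of 10, with folds from 4.48 to 6.31, and these were both Atg2 genes, the phosphoinositide-binding Wipi1, Wipi2 and Wdr45b, and Tmem41b. Without a fold limit the conjugation group was highest with 7 of 11, adding Atg16l1, Atg4b and Atg4c to the 4 core genes. Of these, Atg3, Atg12 and Atg4c had folds below 5, and the rank is given only for the count without such a limit. The protease gene Atg4b had the highest fold of the list at 11.0 from 27 fragments.

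The LC3 and GABARAP family had 1 of 5 bound. Map1lc3a had a fold of 5.56, whereas Map1lc3b, Gabarap, Gabarapl1 and Gabarapl2 had no promoter summit. Of 12 cargo receptors 4 were bound, Sqstm1, which encodes p62, with a fold of 4.84, Nbr1 with 4.29, Fundc1 with 5.38 and Ccpg1 with 6.30. The fusion genes had 3 of 8, Snap29, Epg5 and Rab7, with folds of 4.34 to 5.13. Of the 4 transcription factors only Tfeb was bound, with a fold of 6.21. In mTORC1 and AMPK signalling, where all 11 genes are CpG-rich, 3 (27.3%) were bound, Rptor, Mlst8 and Rheb, and Mtor, the kinase itself, was not. Group sizes of 4 to 12 genes leave these shares imprecise, and no difference between roles was tested.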

How the data were processed

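YY1 ChIP-seq was analysed from 1 narrowPeak list. Per the labels the authors aligned reads to mm10 with Bowtie2 and called peaks with MACS2 (versions not given in the sources used here), and the methods state a p-value limit of 0.0001. The deposited columns hold coordinates, a score (not used), fold enrichment at the summit (a ratio), −log10 p and −log10 q. Summits were taken from the start and the peak offset.

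From the deposited −log10 p and fold, fragments and local background were recovered for all 4681 peaks (within 0.001 of the deposited value), and 95% exact Poisson intervals were set on the fragments. The narrowest peak and the most frequent background imply about 13357713 fragments in the library. The smallest peaks rest on 8 fragments and the largest on 394, which sets the precision of each fold. Such intervals cover the counting error of the fragments only. The local background was held fixed, so its own error is left out.

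Start sites came from 81033 basic transcripts of 55450 genes, and 13 mitochondrial coding genes were left out. CpG-rich means a GC content of at least 50% and a CpG ratio of at least 0.6 within 500 bp. Motifs were searched on both strands within 100 bp of summits. Named were the 10 genes, list genes with a promoter summit, genes starting within 1000 bp of a core promoter summit, and the gene nearest to each unbound core gene's nearest summit. Pik3c3, Mtor, Foxo3, Gabarap, Gabarapl1, Gabarapl2, Wdr45, Harbi1 and Gm20388 were named after their values were seen. Members and lists were chosen with earlier results of these data known, and no comparison was tested.

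Python 3.11.15, pandas 2.3.3, numpy 2.4.6, scipy 1.17.1, pysam 0.24.0, samtools 1.23.1 and matplotlib 3.10.9 were used. On simulated data, 2000 of 2000 summits inside and 2000 of 2000 just outside the window were placed rightly, as were 2000 of 2000 fragment numbers and 200 of 200 motifs.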

Additional observations from a re-analysis of the deposited data

How the results depend on the processing

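The promoter counts of the core, list and protein-coding genes were recomputed under other windows, annotations and peak limits, but the counts by role, by opposite-strand start and by CpG class were not. Requiring a fold of at least 5 left 3 core genes (Atg5, Rb1cc1, Atg7), 19 list genes and 2445 protein-coding genes (11.1%), and the median distance to the nearest summit of the 10 genes moved from 527 to 28704 bp. Atg12 was also lost at 500 bp, and Rb1cc1 with 1000 bp upstream and 100 bp downstream, leaving 5 core genes in each case (17.7% and 14.6% of protein-coding genes), while 5000 bp added Map1lc3b to give 7 (20.4%). Atg5, Atg7, Atg13, Becn1 and Ulk1 kept their call in all 12 settings, and q limits of 0.05 and 0.01 changed no core gene. Counting any base of a peak put 5 core genes with a peak inside the gene, against 2 by summits (18.8% and 13.7% of protein-coding genes). The core ATGGC was matched at 2 summits, where AANATGGC gave 0. With all annotated transcripts, the nearest summit of Ulk1 was 16621 bp away. Counting only CpG-rich genes and leaving out the 10 core genes were chosen after seeing the data. No paired analysis was possible because there was 1 library per antibody and no test. Without replicates, the spread between cultures or animals is unknown.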

Other observations

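Among the 74 list genes, Sqstm1 was the only one with 2 summits inside the gene, and no list gene had a summit inside it without a promoter summit. Foxo3, a transcription factor that induces autophagy genes, had its nearest summit at 1250 bp, just beyond the limit used for promoters. Next in distance among the list genes without a promoter summit came Gabarap at 4.13 kb, Map1lc3b at 4.83 kb and Wdr45 at 7.91 kb. Counting the promoter summit itself, 1 summit lay within 100 kb of the start of Atg3, Atg5, Atg12 and Rb1cc1, 2 of Atg7 and 3 of Atg101. Of the genes without a promoter summit, Ulk1 had 1 within that distance, Atg13 and Becn1 had 2 each, and Map1lc3b had 3.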
